A study of Mus musculus with 24 samples.

Results

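The step from ZT03 to ZT07, the early light phase, was examined in hearts of mice homozygous for the Clock delta 19 mutation. Zeitgeber time (ZT) is the number of hours since the lights came on, so both times lie within the 12 h of light of a 12 h light and 12 h dark cycle. The comparison takes the hearts labelled ZT07 (4 hearts) minus those labelled ZT03 (4 hearts), which are 8 of the 24 hearts of the series. The other 16 hearts, 4 each at ZT11, ZT15, ZT19 and ZT23, entered only the estimate of the spread and the comparisons with other steps. All mice were males of 8 weeks, all carried 2 copies of the mutant allele, and the tissue is labelled myocardium. Hearts of mice with an intact Clock gene were not analysed here. Transcripts were measured on 1-colour Affymetrix arrays from 500 ng of total RNA per heart, and the hearts of a time point are labelled as biological replicates.

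The circadian clock of a cell is a feedback loop in which CLOCK and its partner BMAL1, the product of Arntl, bind E-boxes and activate the genes of their own repressors, the PER and CRY proteins. A second loop runs through the nuclear receptors REV-ERB and ROR, which repress and activate Arntl. The transcript of the delta 19 allele lacks an exon of Clock, and its protein binds BMAL1 but activates transcription poorly. In hearts with an intact clock, the early light phase is a time when E-box targets such as Per1, Nr1d1 and Dbp rise and Arntl declines, while mice rest and feed little.

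Each deposited value is a difference, on a log scale taken as log2, from the median of that feature over the 24 arrays. It carries no level, so a value below 0 means lower than the typical heart for that gene and levels of different genes cannot be set side by side. The number spacing of the values nonetheless splits features into a brighter and a dimmer class, and 461 of 22180 genes (2.08%) fall in the brighter class. Of the cardiomyocyte markers, 9 of 10 were in it (Myh6, Actc1, Tnnt2, Tnni3, Myl3, Ryr2, Mb, Ckm and Pln), with Nppa of the atrial markers. It also held Dcn and Gsn of the fibroblast list and Cdh5 and Kdr of the endothelial list. From the smooth muscle and pericyte list it held Rgs5, Abcc9 and Des, and from the brown adipocyte list Cox8b. Abcc9 and Cox8b are also in the pathway lists below, and the class does not show which cells gave a signal. No marker of macrophages, neutrophils, lymphocytes, white adipocytes, mesothelium or lung was in the brighter class. The ZT03 and ZT07 arrays deviated from their time-point means by an SD over genes of 0.0715 to 0.0971, and the other arrays by 0.0808 to 0.115. In the clock genes described below, ZT19 replicate 2 was the highest or the lowest of all 24 hearts for 18 of 29 genes, against 0 to 5 genes in any other heart. That heart enters the early light comparison only through the shared spread.

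Between ZT03 and ZT07, 0 of 22180 genes passed the test with limma at an adjusted p under 0.05, a called share of 0%, and the smallest adjusted p was 0.9998. An unadjusted p under 0.05 was reached by 802 genes (3.62%), of which 408 were higher at ZT07 (1.84%) and 394 lower (1.78%). All 4 ZT07 hearts lay above all 4 ZT03 hearts for 383 genes (1.73%) and below them for 280 (1.26%). The median absolute difference over genes was 0.034 and the 99th percentile 0.218, which is a 1.16-fold difference. A fold of 1.5 was exceeded by 5 genes, Zbtb16 upwards and Sln, Hamp, Acot2 and a small nucleolar RNA gene downwards.

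The small differences were measured with enough precision to set a limit on most genes. The median standard error (SE) of ZT07 minus ZT03 was 0.060, and the median 95% interval reached 0.125 to either side, or 1.09-fold. In a pair of one-sided tests against a 1.5-fold difference in either direction, with limma variances and Benjamini-Hochberg adjustment, 22143 of 22180 genes (99.8%) were held within 1.5-fold. This test was added after it was seen that 0 genes passed. Within 1.2-fold 19625 genes (88.5%) were held. If the deposited values are natural logs, these counts are 21898 and 13197. These tests bound a gene's difference one gene at a time, and the shares say nothing about genes whose signal was too dim to follow, since signal over background is unknown.

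**Figure D1:**
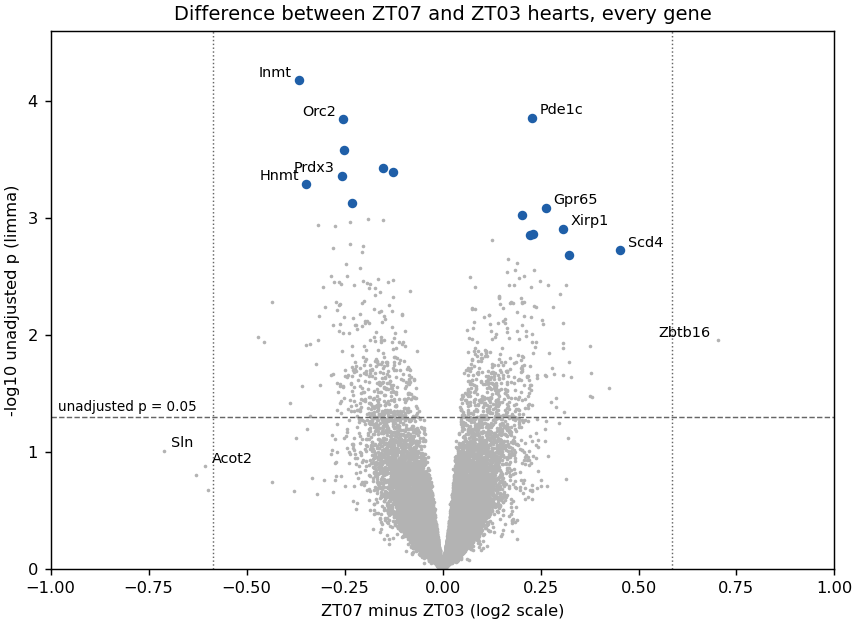
Difference between ZT07 and ZT03 hearts for 22180 genes. The x axis gives ZT07 minus ZT03 on the log2 scale and the y axis -log10 of the unadjusted p with limma; the dotted lines mark 1.5-fold, the dashed line the unadjusted threshold, and the blue points are the 16 genes of smallest p named in the text. Zbtb16 (0.70), Sln (-0.71) and Acot2 (-0.61) lie outside the dotted lines, and 0 genes passed after adjustment.

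Among the genes that were lower at ZT07, Inmt, Orc2, Dpy30, Rec114, Rragb, Prdx3, Hnmt and Fnip1 had the smallest p. They were chosen by their p on these hearts, so the values describe them and 0 of them passed the test over all genes (adjusted p with limma 0.9998 for each). Inmt codes for a methyltransferase of indole amines. Its ZT03 hearts were at 0.12, 0.30, 0.19 and 0.26 and its ZT07 hearts at -0.094, -0.26, -0.24 and -0.0024. The groups did not overlap, and the difference was -0.37 ± 0.074 (SE, n = 4 hearts each), with a 95% interval of -0.52 to -0.21 and an unadjusted p with limma of 6.6e-05. Hnmt codes for the enzyme that inactivates histamine by methylation. It was at 0.57, 0.51, 0.50 and 0.17 at ZT03 and at 0.012, 0.0075, 0.26 and 0.073 at ZT07, a difference of -0.35 ± 0.085 (SE). Its groups overlapped, since ZT03 replicate 4 lay below ZT07 replicate 3.

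Prdx3 codes for the peroxiredoxin of the mitochondrial matrix, which removes hydrogen peroxide. Its ZT03 hearts were at 0.36, 0.33, 0.39 and 0.42 and its ZT07 hearts at 0.12, 0.13, 0.16 and 0.067, without overlap and with a difference of -0.26 ± 0.062 (SE). Prdx3 was lower again at ZT11, with a mean of -0.13 ± 0.062 (SD, n = 4). Orc2 codes for a subunit of the complex that marks origins of DNA replication. It lay at 0.22, 0.28, 0.30 and 0.22 at ZT03 and -0.028, 0.010, 0.0085 and 0.024 at ZT07, also without overlap (-0.25 ± 0.054, SE). Dpy30 codes for a core subunit of histone methyltransferase complexes. Its hearts were at 0.32, 0.15, 0.19 and 0.10 and then at -0.054, -0.073, 0.011 and -0.12, again without overlap (-0.25 ± 0.057, SE).

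Rragb and Fnip1 code for proteins that link amino acid supply to mTOR at the lysosome, a RAG GTPase and a partner of folliculin. Rragb was at 0.16, 0.12, 0.14 and 0.11 at ZT03 and at -0.053, 0.062, 0.055 and -0.034 at ZT07, without overlap (-0.13 ± 0.030, SE). Fnip1 was at 0.19, 0.31, 0.33 and 0.088 and then at -0.046, -0.11, 0.17 and -0.0056 (-0.23 ± 0.058, SE), and its groups overlapped. Rec114, a gene of meiotic recombination, differed by -0.15 ± 0.036 (SE), with ZT07 hearts close together at -0.064, -0.068, -0.080 and -0.074 and ZT03 hearts spread at 0.16, 0.012, 0.12 and 0.031. Of these 8 genes, 6 had groups that did not overlap, beside 1.26% of all genes that were lower without overlap. They were picked for their p, and the count is no support for them.

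Among the genes that were higher at ZT07, Pde1c, Gpr65, Parp4, Xirp1, Rbm5, Gga2, Scd4 and Inka2 had the smallest p, and 0 of them passed the test over all genes. Pde1c codes for a phosphodiesterase that calcium and calmodulin switch on. Its ZT03 hearts were at -0.12, -0.083, -0.010 and -0.076 and its ZT07 hearts at 0.28, 0.16, 0.15 and 0.037, a difference of 0.23 ± 0.049 (SE) with an unadjusted p with limma of 1.4e-04. Xirp1 codes for an actin-binding protein of the intercalated disc that is induced by load. It lay at -0.53, -0.29, -0.33 and -0.33 at ZT03 and at -0.042, -0.13, -0.0048 and -0.083 at ZT07 (0.31 ± 0.082, SE). Its ZT03 values were the low ones of the day, since the means at the other 5 time points ran from -0.064 to 0.16. Scd4 codes for a stearoyl-CoA desaturase of the heart, which makes monounsaturated fatty acids. It was at -0.12, 0.016, -0.0028 and -0.026 at ZT03 and at 0.23, 0.35, 0.44 and 0.66 at ZT07, with a difference of 0.45 ± 0.13 (SE) and a 95% interval of 0.19 to 0.72. Its mean at ZT07 was the highest of the 6 time points.

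Inka2 codes for an inhibitor of a PAK kinase, and it lay at -0.34, -0.22, -0.33 and -0.16 at ZT03 and -0.034, 0.0010, 0.18 and 0.10 at ZT07 (0.32 ± 0.092, SE). Gpr65 codes for a receptor that senses protons. It lay at -0.20, -0.030, 0.019 and -0.28 and then at 0.24, 0.20, 0.080 and 0.052 (0.26 ± 0.067, SE). Rbm5 codes for a regulator of splicing, and its ZT03 hearts at -0.17, -0.19, -0.28 and -0.25 lay just below the lowest of the ZT07 hearts at -0.14, 0.15, 0.023 and 0.021 (0.23 ± 0.063, SE). Parp4, a gene of the vault particle, differed by 0.20 ± 0.052 (SE), and Gga2, which codes for a sorting adaptor between the Golgi and lysosomes, by 0.22 ± 0.061 (SE). Gga2 averages 2 features, at 0.28 and 0.17. The groups did not overlap in any of these 8 genes. Over all 22180 genes 1.73% were higher without overlap, but these 8 were picked for their p, so the count is no support for them.

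**Figure D2:**
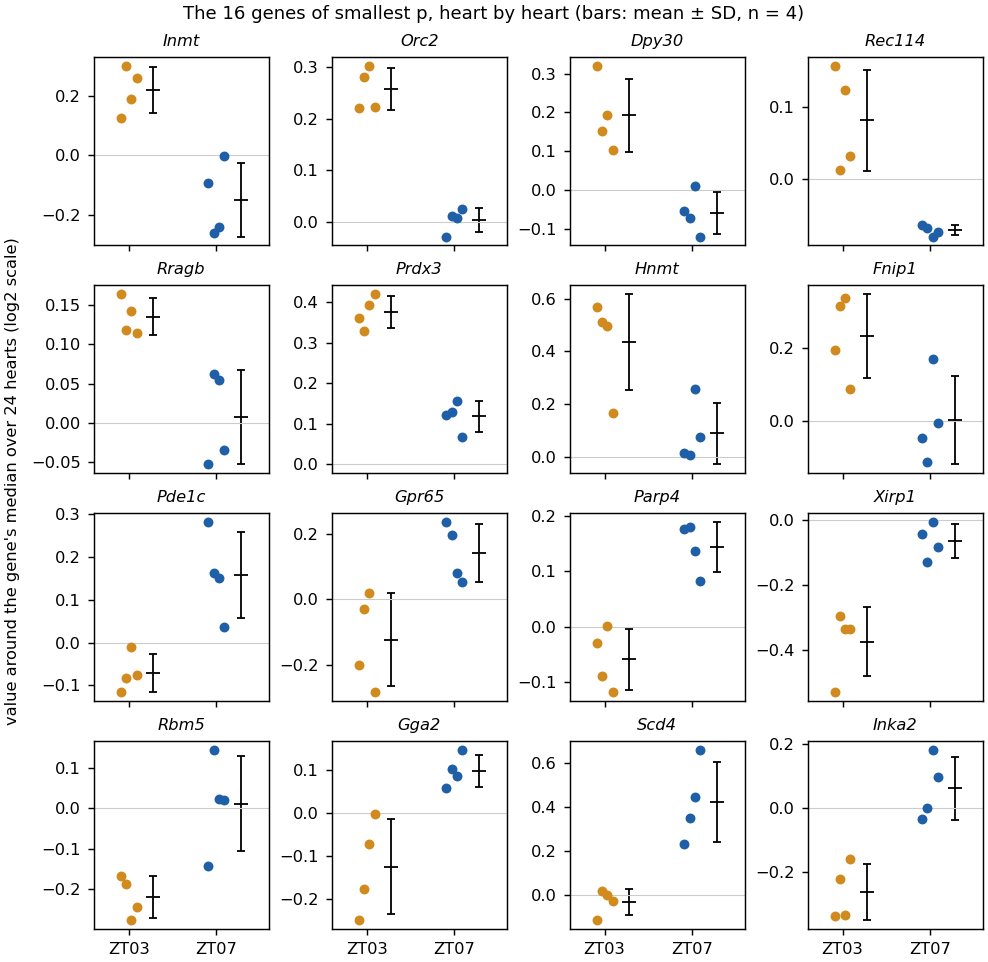
Values of the 16 genes of smallest p in each ZT03 and ZT07 heart. Each panel is a gene, with its value around its median over 24 hearts (log2 scale) on a y axis of its own range; points are hearts and bars the mean ± SD (n = 4). The groups overlap for Hnmt and Fnip1 and are apart for the other 14, and 0 of the 16 passed the test over all genes.

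The clock genes were examined next, since this step is where an intact clock moves many of them. The letters that the clock factors read were looked for in the 250 bases before the transcript starts of RefSeq genes (build GRCm38.p6). The motifs were the E-box CACGTG bound by CLOCK with BMAL1, the D-box TTATGTAA bound by DBP, TEF, HLF and NFIL3, and the element AAGGTCA or TAGGTCA bound by ROR and REV-ERB, each on both strands. The E-box was in 6.02% of 32851 promoters, the D-box in 0.819% and the ROR element in 6.18%. Of 26 measured clock and clock output genes with a promoter in the table, 6 held an E-box at 1 or more starts (Bhlhe41, Ciart, Cry1, Per1, Tef and Tspan4). Counted by gene, 1330 of all 16990 genes with a promoter in the table held an E-box. Below are 4 promoters, shown because they carry 1 kind of these letters each and belong to a repressor or an output regulator of the loop. The motif is in capitals, and a ROR element on the other strand reads as its reverse complement. Per1 lies at chr11:69098699-69098948 (+ strand, 1 of 2 starts in the table), Cry1 at chr10:85185055-85185304 (- strand), Per3 at chr4:151044666-151044915 (- strand) and Nfil3 at chr13:52981040-52981289 (- strand), each up to the transcript start and read along the gene's strand.
Per1: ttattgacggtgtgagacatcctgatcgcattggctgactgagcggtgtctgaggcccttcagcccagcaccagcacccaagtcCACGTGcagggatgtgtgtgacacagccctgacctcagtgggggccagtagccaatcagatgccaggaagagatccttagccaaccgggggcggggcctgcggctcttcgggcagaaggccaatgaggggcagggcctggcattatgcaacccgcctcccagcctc
Cry1: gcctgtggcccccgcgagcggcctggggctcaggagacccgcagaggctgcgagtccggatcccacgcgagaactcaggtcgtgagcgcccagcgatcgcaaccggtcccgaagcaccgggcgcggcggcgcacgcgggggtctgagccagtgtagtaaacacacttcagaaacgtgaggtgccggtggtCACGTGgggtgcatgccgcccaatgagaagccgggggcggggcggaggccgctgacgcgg
Per3: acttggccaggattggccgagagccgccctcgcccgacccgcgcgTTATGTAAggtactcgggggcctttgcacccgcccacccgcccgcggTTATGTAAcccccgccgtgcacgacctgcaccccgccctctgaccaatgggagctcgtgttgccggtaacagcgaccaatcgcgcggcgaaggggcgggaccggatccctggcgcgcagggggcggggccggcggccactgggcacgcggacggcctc
Nfil3: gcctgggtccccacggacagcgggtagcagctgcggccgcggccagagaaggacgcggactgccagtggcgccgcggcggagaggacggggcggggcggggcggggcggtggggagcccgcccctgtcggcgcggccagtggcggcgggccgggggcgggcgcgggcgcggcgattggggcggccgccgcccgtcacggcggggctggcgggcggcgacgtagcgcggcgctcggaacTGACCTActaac
Per1 and Cry1 hold 1 E-box each, Per3 holds 2 D-boxes, and Nfil3 holds 1 ROR element next to its start. Over all genes with a promoter in the table, those with an E-box had a median difference of -0.00048 between ZT07 and ZT03 and those without 0.0019. For the D-box these medians were 0.000099 and 0.0019, and for the ROR element 0.0030 and 0.0018.

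Of 29 measured genes of the core clock and its direct output, 0 passed the test over all genes (called share 0%), 6 had an unadjusted p with limma under 0.05 and 3 had groups that did not overlap. Over all genes these last shares were 3.62% at p under 0.05, and 1.73% higher and 1.26% lower without overlap. Since the clock lists were chosen with earlier results of these data known, their counts are descriptive. All 29 were held within 1.5-fold, although the 95% intervals of Nr1d1 and Arntl, which are wider than those the one-sided tests use, ended just past it at 0.60 and -0.59. If the values are natural logs, 25 of the 29 were held, and Arntl, Nr1d1, Per1 and Usp2 were not. With only the 8 hearts of ZT03 and ZT07 in the fit, 8 of the 29 had an unadjusted p under 0.05, and without ZT19 replicate 2 there were 7, with 0 passing in both cases.

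Among the activators of the loop, Arntl lay at 0.13, 0.35, 0.027 and 0.45 at ZT03 and at 0.069, -0.17, 0.054 and -0.12 at ZT07. The 2 highest hearts were at ZT03, the groups overlapped, and the difference of -0.28 ± 0.15 (SE) did not pass (unadjusted p with limma 0.071, or 0.015 without ZT19 replicate 2). Its mean went on to -0.34 ± 0.091 (SD, n = 4) at ZT11. Npas2, a paralog that can stand in for Clock, was at 0.11, 0.24, 0.25 and 0.083 and then at -0.029, -0.26, 0.0026 and 0.12 (-0.22 ± 0.089, SE), with 1 ZT07 heart above 2 ZT03 hearts. Clock itself differed by -0.022 ± 0.093 (SE) and had hearts of both groups on both ends, at 0.085, 0.12, 0.062 and 0.0043 and at -0.11, 0.13, -0.0084 and 0.17. The array's Clock probes are not placed in the labels relative to the exon that the mutant transcript lacks, and the value says nothing about that exon. Arntl2 differed by -0.050 ± 0.079 (SE).

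Among the repressors, Per1 lay at -0.26, -0.065, 0.014 and 0.35 at ZT03 and at -0.20, 0.18, 0.42 and 0.48 at ZT07. The hearts of each time point spanned more than the difference of 0.21 ± 0.18 (SE), and the groups overlapped. Its 95% interval ran from -0.16 to 0.58. Cry2 was at -0.010, -0.23, -0.095 and -0.17 and then at 0.25, -0.038, 0.049 and 0.10 (0.22 ± 0.10, SE), with an overlap of 1 heart from each group. Cry1, whose promoter also holds an E-box, differed by -0.0078 ± 0.12 (SE), with ZT03 hearts from -0.25 to 0.18 and ZT07 hearts from -0.26 to 0.085. Per3 differed by 0.095 ± 0.13 (SE), where the shared spread includes an SD of 0.44 at ZT19, beside 0.083 at ZT03 and 0.047 at ZT07. Ciart, which codes for a further repressor of CLOCK, and Timeless differed by -0.030 and -0.0067. Csnk1e, which codes for a kinase of the PER proteins, differed by -0.044.

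Of the nuclear receptors, Nr1d1, which codes for REV-ERB alpha, was at -0.28, -0.040, -0.31 and -0.025 at ZT03 and at 0.14, 0.17, 0.14 and 0.21 at ZT07. The ZT07 hearts lay close together and above all ZT03 hearts, with a difference of 0.33 ± 0.13 (SE, unadjusted p with limma 0.023). This was the largest difference among the clock genes, and it did not pass over all genes. The unadjusted p of Nr1d1 with limma was 0.0014 with only the 8 hearts of ZT03 and ZT07 in the fit. Without ZT19 replicate 2 it was 0.0064, and Nr1d1 passed in neither case. The mean then lay at 0.0055 ± 0.18 (SD) at ZT11. Nr1d2, which codes for REV-ERB beta, was at 0.14, 0.053, -0.014 and -0.35 and then at 0.059, 0.075, 0.053 and 0.085 (0.11 ± 0.14, SE), and ZT03 replicate 4 was the low heart of its group. Rora differed by 0.045 and Rorb by -0.13.

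Of the output regulators, Nfil3, which codes for a repressor that competes for D-boxes, had the smallest unadjusted p of the 29 genes (0.0035 with limma). Its ZT03 hearts were at -0.10, 0.049, -0.10 and 0.071 and its ZT07 hearts at -0.16, -0.33, -0.22 and -0.42. All ZT07 hearts lay below all ZT03 hearts, with a difference of -0.26 ± 0.080 (SE), and the ZT07 mean was the lowest of the 6 time points. The activators of the same D-boxes differed little, Dbp by -0.019 ± 0.12 (SE), Tef by 0.024 ± 0.047 (SE, 2 features at 0.092 and -0.045) and Hlf by -0.012 ± 0.074 (SE). Dbp at ZT03 was at 0.23, -0.081, -0.056 and -0.078, so that replicate 1 stood above the others. Usp2, which codes for a deubiquitinase under clock control, was at -0.27, -0.13, 0.0027 and -0.12 at ZT03 and at 0.077, 0.13, 0.11 and 0.22 at ZT07, without overlap (0.26 ± 0.11, SE). Tspan4, a tetraspanin gene, was at 0.067, 0.048, -0.0034 and 0.24 and then at -0.20, -0.041, -0.0019 and -0.22 (-0.20 ± 0.088, SE), and the groups overlapped by a narrow margin. Bhlhe40 and Bhlhe41, which code for E-box repressors, differed by 0.14 and 0.11. The other output genes ran from -0.13 for Wee1, a cell cycle kinase gene, to 0.074 for Nampt, which codes for the enzyme limiting NAD salvage, with Klf10 (-0.052), Klf9 (-0.011), Fmo2 (-0.0058) and Tsc22d3 (0.0062) between them.

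**Figure D3:**
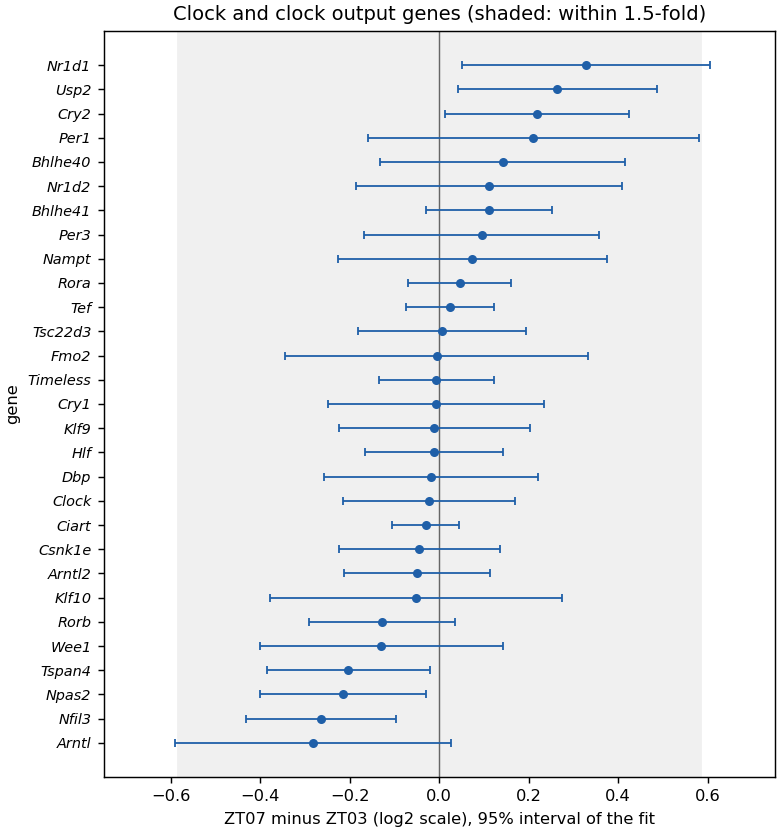
Fitted ZT07 minus ZT03 for 29 clock and clock output genes. The x axis gives the difference on the log2 scale, points are fitted differences, bars their 95% interval with limma, and the grey band spans 1.5-fold in either direction. The intervals of Nr1d1 and Usp2 (both higher) and of Nfil3 and Npas2 (both lower) leave out 0 before adjustment, with those of Cry2 and Tspan4.

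Across 26 pathway lists, the list medians lay near the median of all genes, while single members ran from -0.71 (Sln) to 0.70 (Zbtb16). Of 574 distinct pathway genes measured, 0 passed over all genes (called share 0%), 35 (6.098%) had an unadjusted p with limma under 0.05 beside 3.62% of all genes, and 565 were held within 1.5-fold (542 if the values are natural logs). The lists were chosen with earlier results of these data known, so the share of 6.098% only describes them. List medians of ZT07 minus ZT03 ran from -0.051 to 0.044, beside 0.0019 for all genes. Over all 22180 genes, 11474 lay higher at ZT07 and 10706 lower. From each list the 2 genes of smallest p are given below, and 0 of them passed.

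The lowest pathway median, -0.051, was that of fatty acid oxidation and PPAR alpha targets, the genes of the heart's main fuel. In this list 9 of its 27 measured members lay higher at ZT07 and 18 lower. The list mean per heart was -0.010 to 0.17 at ZT03 and -0.0017 to 0.054 at ZT07, so the groups overlapped. Ucp3, which codes for a mitochondrial uncoupling protein that follows fatty acid supply, was at -0.085, 0.20, 0.47 and 0.31 at ZT03 and at 0.13, -0.35, -0.31 and -0.13 at ZT07 (-0.39 ± 0.18, SE). Ech1, which codes for an isomerase of fatty acid oxidation, differed by -0.15 ± 0.060 (SE). Acot2, which codes for a mitochondrial acyl-CoA thioesterase, was named after its values were seen, because its difference was over 1.5-fold. It lay at 0.30, 0.49, 1.06 and 1.29 and then at 0.060, -0.0041, 0.61 and 0.049 (-0.61 ± 0.39, SE), so the 2 highest hearts were at ZT03 and the groups overlapped. In triglyceride handling (median 0.0059), beside Scd4, Lpl, the lipoprotein lipase gene, was at -0.25, -0.27, -0.31 and -0.35 and then at -0.17, -0.086, -0.19 and -0.18, without overlap (0.14 ± 0.063, SE). The 2 features of Lpl gave 0.23 and 0.055. In sterol synthesis (median -0.016), Insig1, which codes for the sensor that holds back sterol synthesis, was at 0.21, 0.21, 0.20 and 0.23 at ZT03 and at 0.13, 0.044, -0.090 and -0.17 at ZT07. The ZT03 hearts lay close together above all ZT07 hearts (-0.23 ± 0.11, SE). Msmo1, a sterol demethylation gene, differed by -0.16.

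In glucose and glycogen metabolism (median 0.020), the glycolytic genes Pgk1 and Pgam2 differed in opposite directions, by -0.10 ± 0.044 and 0.17 ± 0.078 (SE). In oxidative phosphorylation (median -0.021), 16 of its 42 measured members lay higher at ZT07 and 26 lower. Sdhc, which codes for a membrane anchor of complex II, was at -0.21, -0.35, -0.19 and -0.38 at ZT03 and at -0.17, 0.0041, -0.0039 and 0.16 at ZT07, without overlap (0.28 ± 0.092, SE). Uqcrc2, which codes for a core subunit of complex III, was at 0.26, 0.17, 0.21 and 0.21 and then at 0.053, 0.085, 0.11 and 0.091, also without overlap but in the other direction (-0.13 ± 0.044, SE). In the antioxidant list (median -0.021) Prdx3 and Txn1, which codes for thioredoxin, had the smallest p, with Txn1 at -0.20 ± 0.073 (SE). Mt2, a metallothionein gene that responds to metals and glucocorticoids, was not held within 1.5-fold. It lay at 0.29, -0.21, 0.10 and 0.10 at ZT03 and at 0.60, 0.68, 0.25 and 0.45 at ZT07 (0.43 ± 0.18, SE).

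The glucocorticoid response had the highest pathway median, 0.044. Of its 21 measured members 16 lay higher at ZT07 and 5 lower, beside 11474 higher and 10706 lower of all 22180 genes. The list mean per heart was -0.13 to 0.095 at ZT03 and -0.034 to 0.12 at ZT07, so the groups overlapped. Corticosterone of nocturnal rodents is low early in the light phase and climbs towards its end. The part of this hormone in the differences below was not tested. Zbtb16, a transcription factor gene strongly induced by glucocorticoids, was at -0.84, -0.67, -1.02 and -0.42 at ZT03 and at -0.73, 0.021, 0.58 and -0.0080 at ZT07. The difference of 0.70 ± 0.25 (SE) was the highest of all genes, but ZT07 replicate 1 lay among the ZT03 hearts and the unadjusted p with limma was 0.011. Mt2, given above with the antioxidant list, had the next smallest p of this list, with a difference of 0.43 ± 0.18 (SE). Dusp1, a glucocorticoid and immediate early gene that codes for a phosphatase of MAP kinases, went the other way (-0.22 ± 0.21, SE). Tsc22d3, another glucocorticoid target, differed by 0.0062. In the immediate early list (median 0.036), Ier3 was at -0.45, -0.28, -0.35 and -0.28 and then at -0.13, 0.036, -0.18 and 0.015, without overlap (0.28 ± 0.12, SE), and the nuclear receptor gene Nr4a3 differed by 0.13 ± 0.072 (SE).

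Among protein folding and turnover genes, the heat shock list had a median of 0.028 and 0 of its 22 measured members had an unadjusted p under 0.05, which at 3.62% of all genes is near the background. Hspa4, which codes for a nucleotide exchange chaperone, differed by 0.084 ± 0.044 (SE) and Chordc1, which codes for a partner of HSP90, by -0.23 ± 0.13 (SE). In endoplasmic reticulum stress (median -0.018), Atf4, which codes for the factor of the integrated stress response, was at -0.17, -0.050, -0.12 and -0.24 and then at 0.079, -0.054, 0.017 and 0.20 (0.20 ± 0.065, SE). Its groups overlapped, with ZT03 replicate 2 level with ZT07 replicate 2. Chac1, a target of ATF4, differed in the other direction (-0.12 ± 0.049, SE), without overlap. In the proteasome list (median -0.028), the base subunit gene Psmc5 differed by 0.21 ± 0.087 and the ubiquitin receptor gene Psmd4 by 0.15 ± 0.080 (SE). ZT03 replicate 1 of Psmc5, at -0.31, lay far below the other ZT03 hearts. In autophagy (median -0.015), the genes Gabarapl2 and Atg5, both of autophagosome formation, differed by -0.20 ± 0.080 and 0.11 ± 0.054 (SE). In insulin and FoxO signalling (median 0.00059), Irs1 and Sesn1 differed by -0.078 and -0.14.

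Among genes of contraction and excitation, the sarcomere list had a median of 0.028, and beside Xirp1 the Z-disc gene Tcap lay at -0.22, -0.17, -0.16 and -0.58 and then at -0.25, 0.20, 0.015 and 0.080 (0.30 ± 0.15, SE). ZT03 replicate 4 was the low heart of Tcap and ZT07 replicate 1 lay among the ZT03 hearts. In calcium handling and depolarising currents (median -0.034), Pln, which codes for phospholamban, the brake on calcium uptake, differed little in size but without overlap. It was at -0.051, -0.073, -0.036 and -0.030 at ZT03 and at 0.016, -0.013, 0.031 and 0.046 at ZT07 (0.068 ± 0.024, SE). Hcn4, which codes for the pacemaker channel, differed by -0.11 ± 0.043 (SE). Of potassium channels (median 8.43e-05), Kcnj5, a subunit gene of the acetylcholine-gated channel, and Kcnv2, a silent subunit gene, differed without overlap by 0.12 ± 0.067 and -0.23 ± 0.13 (SE). In angiotensin and natriuretic peptide genes (median -0.028), 2 of its 13 measured members lay higher at ZT07 and 11 lower, with the receptor genes Npr1 at -0.085 and Npr3 at -0.12.

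Among the remaining lists, the extracellular matrix (median 0.0048) held the proteoglycan genes Dcn and Bgn with differences of opposite sign, -0.18 ± 0.072 and 0.12 ± 0.056 (SE). The 2 features of Bgn gave 0.16 and 0.073. In hypoxia (median -0.0068), Hif1a, the oxygen-regulated factor gene, was at 0.13, 0.082, 0.081 and 0.057 and then at 0.0022, -0.057, 0.0024 and 0.044 (-0.090 ± 0.036, SE), with features at -0.12 and -0.063, and Ndrg1 differed by 0.066. In the interferon response (median 0.0077), 0 of 21 members had an unadjusted p under 0.05, again near the 3.62% of all genes, and Rsad2 and Isg15 differed by 0.10 and -0.041. Of SR proteins and splicing regulators (median -0.031), Tra2b differed by -0.11 and Mbnl1 by 0.11, and the cold-induced Cirbp by -0.0065. Ribosomal protein genes differed in both directions. Of cytosolic ones (median 0.022) Rps23 differed by 0.32 ± 0.12 and Rpl7 by -0.16 ± 0.069 (SE), and of mitochondrial ones (median 0.0070) Mrpl24 by -0.12 and Mrps35 by 0.11. The 2 features of Rpl7 gave -0.30 and -0.019. Ribosomal protein genes have many near-identical processed copies, so the arrays may not tell these apart.

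**Figure D4:**
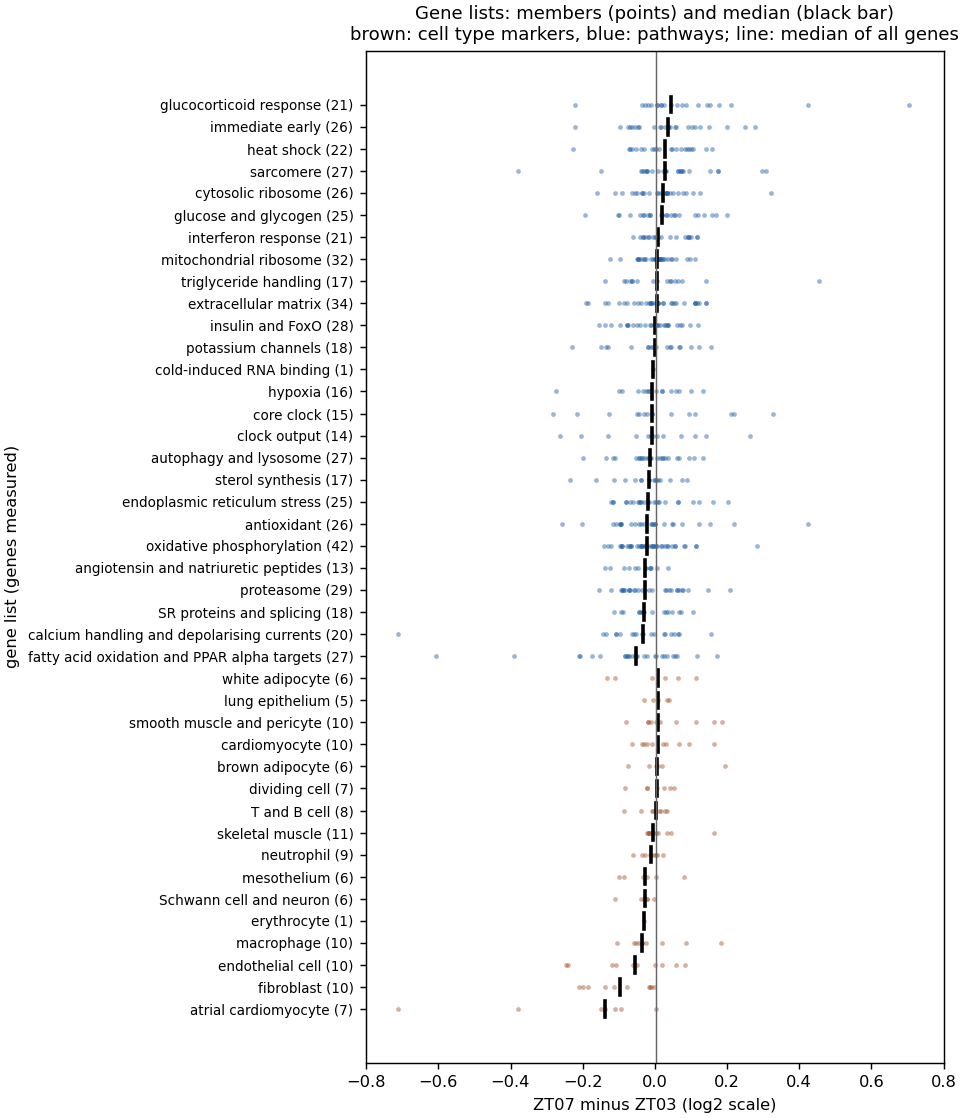
ZT07 minus ZT03 of the members of 42 gene lists. Each row is a list with its number of measured genes, points are genes, black bars list medians, and the x axis is the difference on the log2 scale; blue marks pathways and brown cell type markers. Medians lie between -0.14 (atrial cardiomyocyte) and 0.044 (glucocorticoid response), and single genes reach from -0.71 (Sln) to 0.70 (Zbtb16).

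Of 16 lists of cell type markers, 0 members passed over all genes. The counts by direction below stand beside 11474 higher and 10706 lower of all 22180 genes. In RNA of a whole tissue sample, fewer cells of a type and less RNA per cell cannot be told apart. The cardiomyocyte markers had a median of 0.0074, with 5 of 10 higher and 5 lower and list means per heart of -0.12 to 0.016 at ZT03 and -0.069 to -0.0031 at ZT07. All 10 fibroblast markers lay lower at ZT07, by a median of -0.10, with Dpt at -0.21 ± 0.085 and Dcn at -0.18 ± 0.072 (SE) and the fibroblast regulator gene Tcf21 at -0.0015. Their mean per heart was 0.053 to 0.17 at ZT03 and -0.069 to 0.15 at ZT07, so the groups overlapped. Of the collagen genes in it, Col1a1 and Col3a1 were both highest in ZT07 replicate 1, at 0.29 and 0.46. Of 10 endothelial markers 7 lay lower, by a median of -0.056. Emcn, which codes for endomucin of veins and capillaries, was at 0.29, 0.088, 0.12 and 0.10 at ZT03 and at 0.045, -0.090, -0.13 and -0.21 at ZT07, without overlap (-0.25 ± 0.072, SE). Vwf, which codes for von Willebrand factor, differed by -0.24 ± 0.10 (SE), while Flt1 and Kdr, the receptor genes for VEGF, were at 0.083 and 0.020. The list means per heart were -0.053 to 0.089 at ZT03 and -0.11 to -0.00086 at ZT07. The part of fibroblast or endothelial content in the differences of other genes was not tested.

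Of the 42 lists, the atrial markers varied most from heart to heart. Sln, which codes for sarcolipin, was at -0.34, 1.12, 1.54 and 0.47 at ZT03 and at -0.43, 1.09, -0.29 and -0.44 at ZT07. Its difference of -0.71 ± 0.41 (SE) was the lowest of all genes, yet each group held hearts near the top and the bottom. Myl7, the atrial myosin light chain gene, was high in the same hearts as Sln (ZT03 replicates 2 and 3 and ZT07 replicate 2), at -0.34, 0.61, 0.58 and 0.13 and then at -0.16, 0.46, -0.31 and -0.53 (-0.38 ± 0.30, SE), and Nppa, the atrial natriuretic peptide gene, differed by -0.14 ± 0.27 (SE). Of the 7 atrial markers 6 lay lower, and their mean per heart ran from -0.15 to 0.42 at ZT03 and from -0.28 to 0.43 at ZT07. The labels do not say how much atrium each sample held. The other cell type medians lay between -0.036 (macrophage) and 0.0091 (white adipocyte). Among them Cd68, a lysosomal gene of macrophages, was at 0.18 while the macrophage receptor gene Csf1r was at -0.10. The erythrocyte list rested on Slc4a1 alone (-0.031).

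The genes that could not be held within 1.5-fold numbered 37, of which 21 have a proper symbol. Scd4, Ucp3, Zbtb16 and Mt2 were also named by rule, and Sln, Myl7 and Nppa are cell type markers. The rest were named after their values were seen. The SE of these 21 ran from 0.13 to 0.43, beside a median of 0.060 over all genes. Hamp, which codes for the iron hormone hepcidin, was at -0.81, 0.29, 1.06 and -0.029 at ZT03 and at -0.56, 0.028, -0.80 and -0.67 at ZT07 (-0.63 ± 0.43, SE). Txnip, a glucose-responsive gene whose protein inhibits thioredoxin, was at 0.35, 0.30, 0.36 and -0.0029 and then at 0.020, -0.58, -0.15 and -0.015 (-0.43 ± 0.31, SE). In both the groups overlapped. Cd59a, which codes for a guard against complement, was at 0.51, 0.34, 0.75 and 0.30 and then at -0.011, 0.24, 0.18 and 0.12, without overlap (-0.35 ± 0.18, SE). The others with lower means at ZT07 were Sln, Acot2, Ucp3, Myl7, Nppa, Dusp1, Atad1 (-0.34), Zfp960 (-0.33), Ppbp (-0.30), Rrad (-0.28) and Dhdh (-0.27). Those with higher means were Zbtb16, Scd4, Mt2, Sfn (0.38), Zfp366 (0.38), Ly6c1 (0.32) and Trp53i11 (0.31). In Zfp960, ZT03 replicate 4 lay at -0.72 while the other ZT03 hearts lay between 0.66 and 0.80.

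Whether the early light step differs from the step 12 h later, ZT15 to ZT19 in the early dark, was tested as a contrast of the 2 steps, which share no heart. It gave 0 genes with limma (called share 0%), 1387 genes at an unadjusted p under 0.05 (6.25%) and a smallest adjusted p of 0.166. The 3 genes of smallest p went in opposite directions in the 2 steps, which their choice by the difference between the steps favours. Rela, which codes for a subunit of NF-kappa B, was higher by 0.21 in the early light and lower in the early dark (-0.26), a difference between the steps of 0.47 ± 0.088 (SE). Its hearts were at -0.20, -0.12, -0.076 and -0.21 at ZT03 and at 0.12, 0.073, -0.078 and 0.11 at ZT07. Tm4sf1, a membrane protein gene of endothelial cells, was lower in the early light (-0.27) and higher in the early dark (0.28). Its hearts were at 0.18, 0.24, 0.35 and 0.35 at ZT03 and at 0.16, -0.012, -0.041 and -0.084 at ZT07, without overlap. Glcci1, a gene induced by glucocorticoids, gave -0.074 and 0.19. The adjusted p with limma was 0.166 for each of the 3. Without ZT11 replicate 3, which acts only through the spread, Tm4sf1 passed (adjusted p with limma 0.020). In the other 23 fits with 1 heart left out, 0 genes passed. Over all 24 such fits the smallest adjusted p with limma ran from 0.020 to 0.457. It was 0.377 without ZT19 replicate 2, a heart that enters this contrast.

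Beside the other 4 h steps of the day, ZT03 to ZT07 had the fewest genes at an unadjusted p under 0.05. There were 802 for it, 2633 from ZT23 to ZT03, 2489 from ZT07 to ZT11, and 1570 to 1622 at the other 3 steps. With only the hearts of each step in its fit, the count was 1229 for ZT03 to ZT07 and 1341 to 2750 for the others, and with array weights 1288 and 1457 to 3026, so it was still the lowest but by less. After adjustment with limma, 231 genes passed from ZT23 to ZT03 (1.04%), 43 from ZT07 to ZT11 (0.194%) and 0 at each of the other 4 steps. With only the hearts of each step, 96 passed from ZT23 to ZT03 and 2 from ZT07 to ZT11, and with array weights 404 and 119. Neighbouring steps share hearts, so their counts are not independent. ZT03 and ZT07 were also the time points with the least spread between hearts, with a median SD over genes of 0.0650 and 0.0649, against 0.0722 to 0.0773 at the others. The difference between the late and the early light step, tested after these counts were seen, gave 0 genes with limma (called share 0%), 1071 at an unadjusted p under 0.05 (4.83%) and a smallest adjusted p of 0.516. The greater count from ZT07 to ZT11 therefore does not show, for any single gene, that the steps differ. The difference from the step before, ZT23 to ZT03, was not tested.

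The small heat shock gene Cryab, named after its values were seen, gives an example. It was at -0.33, -0.44, -0.38 and -0.37 at ZT03 and at -0.28, -0.25, -0.26 and -0.35 at ZT07 (0.094 ± 0.056, SE), and all 8 hearts lay well below the gene's median. Its 2 features gave 0.15 and 0.034 in the early light step. From ZT07 to ZT11 its difference was 0.43. Lpl had 0.14 in the early and 0.38 in the late light step. Of the 394 genes at an unadjusted p under 0.05 and lower at ZT07, 324 had their highest mean of the day at ZT03 and 147 their lowest at ZT07. Of the 408 that were higher, 266 had their lowest mean at ZT03 and 253 their highest at ZT07. Over all genes, 3844 were highest and 4759 lowest at ZT03, and 3082 were highest and 3514 lowest at ZT07. The choice by p at this step fixes part of these counts, which describe the genes only.

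**Figure D5:**
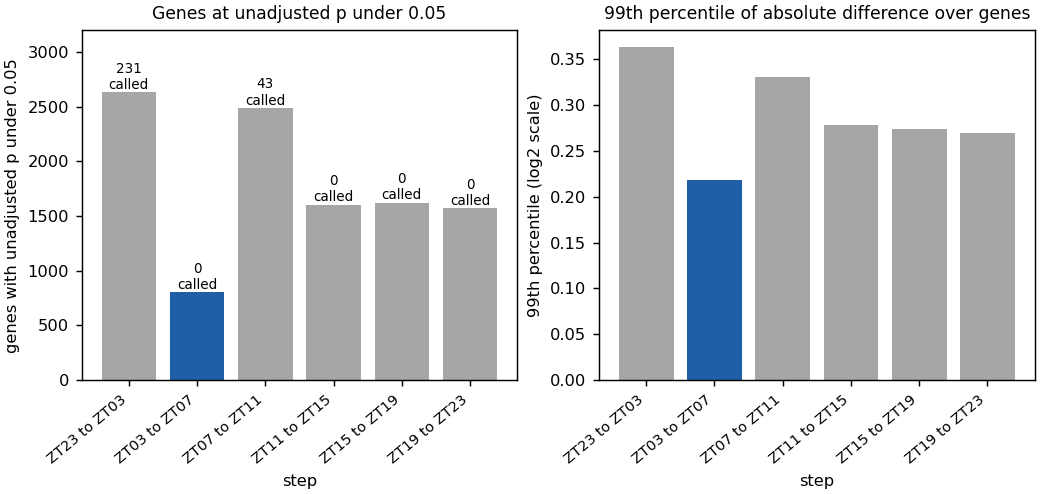
The 6 steps of 4 h compared. Bars start at 0 and give, on the left, the genes with an unadjusted p under 0.05 with limma, with the number passing after adjustment above each bar, and on the right the 99th percentile of the absolute difference over genes (log2 scale). ZT03 to ZT07, in blue, has the lowest bar in both, with 802 genes and 0.218.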

How the data were processed

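Transcripts were measured in 24 hearts, 4 per time point, as the labels group them. The deposited values are taken as log2 and come from the authors' value table, in which the median of every feature over the arrays lies within 5e-07 of 0. Probe summarization, normalization, the log base and any filter are not given in the sources used here. If the base is e, every size is 1.443 times larger. Centred values hold no level, so no filter on low values was applied, signal over background is unknown, and the number of arrays limits the precision.

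Of 34351 features, 23521 had 1 gene symbol in the platform annotation, 1814 several and 9016 none. Of the first, 23328 matched RefSeq (GRCm38.p6). Features of a gene were averaged, which left 22180 genes, 1082 of them with several features. limma 3.58.1 in R 4.3.3 fitted 6 time-point means, with Benjamini-Hochberg adjustment at 0.05. The fit was tested on simulated data. In their deviations from the time-point means over all genes, same-numbered ZT03 and ZT07 hearts correlated by -0.119 to 0.0485. The numbers were therefore not taken to pair these hearts.

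The step, the genes and the gene lists were chosen with earlier results of these data known. Named genes are the 8 of smallest p in each direction, the 3 of smallest p in the contrast with the early dark step, every measured clock and output gene, and the 2 of smallest p in each other pathway list. Others were named after their values were seen. Cell type markers are named beside them as checks. Gene models, microRNA and small nucleolar RNA genes were counted, not named. Alternatives were other hearts in the fit, a replicate block, array weights, other normalizations, a filter on SD, other variance shrinkage, features tested singly and each heart left out. Promoters come from RefSeq (GRCm38.p6), 16990 genes matched.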

Additional observations from a re-analysis of the deposited data

Results flagged for a closer look

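In 8 of 184 groups of 4 hearts, taken over the 92 genes named by rule, 1 heart lay far from the other 3 by Dixon's criterion, which sets the gap to the nearest heart against the group's range. Chance flags about 1 in 20 groups. Dbp, a clock output gene, was at 0.23 in ZT03 replicate 1 against -0.081 to -0.056 in the others. The proteasome gene Psmc5 was at -0.31 in the same heart, against -0.023 to -0.00038. In ZT03 replicate 4, the Z-disc gene Tcap was at -0.58 against -0.22 to -0.16, and the insulin signalling gene Irs1 at -0.0091 against 0.090 to 0.11. In ZT07 replicate 1, Mrps35, a mitochondrial ribosome gene, was at 0.24 against -0.041 to -0.036, and the hypoxia gene Ndrg1 at 0.083 against -0.018 to -0.014. Rpl7 was at -0.11 in ZT07 replicate 2 against -0.0084 to -0.0058. Ech1, a gene of fatty acid oxidation, was at -0.14 in ZT07 replicate 4 against -0.0017 to 0.022. No heart was the distant one in more than 2 of these genes, and 0 of the 8 genes passed the test of ZT07 minus ZT03 with limma, where 802 of all genes had an unadjusted p under 0.05.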

How the results depend on the processing

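The count of genes passing between ZT03 and ZT07 was 0 with limma under all 33 alternatives, 24 with 1 heart left out and 9 other settings, and 0 of 34351 features passed when those with no or several symbols were added. The smallest adjusted p with limma over these settings was 0.096, for 1 of 2 features of Rad1 tested singly, named after its value was seen. That feature gave -0.21 and the other Rad1 feature 0.095, in the opposite direction. Genes at an unadjusted p under 0.05 numbered 1229 with only the 8 hearts compared, 1288 with array weights and 1004 with quantile normalization, beside 802. Genes held within 1.5-fold numbered 22106 to 22146 with 1 heart left out, and 16603 of 16635 when the genes of lowest SD were left out. The contrast with the early dark step gave 0 to 1 genes with 1 heart left out and 0 otherwise, and that with the late light step 0 throughout. With the replicate number as a block, 0 genes passed in each of the 3 contrasts and 807 had an unadjusted p under 0.05 between ZT03 and ZT07. In deviations from the time-point means over all genes, 0 of 4 ZT03 hearts correlated best with the ZT07 heart of their number. For ZT03 and ZT11, 4 of 4 did, with same-number correlations of 0.0321 to 0.198, which is a hint from the data and not from the labels.

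The direction of 12 genes with differences near 0 turned under some alternatives. With array weights Cirbp was at 0.0067, Cry1 at 0.018, Fmo2 at 0.0044, Klf9 at 0.020 and Timeless at 0.0024. With quantile normalization Cry1 was at 0.0064, Fmo2 at 0.017, Klf9 at 0.00235 and Tsc22d3 at -0.0072. With 1 heart left out, the range was -0.070 to 0.051 for Cirbp, -0.063 to 0.029 for Clock, -0.070 to 0.072 for Cry1, -0.13 to 0.0062 for Csnk1e and -0.047 to 0.056 for Dbp. It was -0.077 to 0.043 for Fmo2, -0.059 to 0.025 for Hlf, -0.088 to 0.072 for Klf9, -0.014 to 0.15 for Nampt, -0.0029 to 0.047 for Tef, -0.053 to 0.031 for Timeless and -0.053 to 0.044 for Tsc22d3. The cause was not tested. The medians of the lists of SR proteins, smooth muscle, neutrophils and lung moved by more than the spread between hearts under 1 or 2 settings each.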
